A study of Drosophila melanogaster with 6 samples.

Results

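The UDP-glycosyltransferase (Ugt) genes of Drosophila melanogaster were examined in larvae mutant for the histone demethylase gene Kdm4A and in control larvae. Members were all genes whose symbol in the platform's probe table begins with Ugt and a digit. Of 11983 genes measured, 35 met this rule, and they are all 35 Ugt genes of the RefSeq table. Each was read by 1 probe set that names no other gene, and no filter on low values was applied, so every member was tested. The mutant larvae carried the insertion allele dKDM4A KG04636 over the deletion ∆dKDM4A. The control larvae carried dKDM4A precise KG06436 over dKDM4A precise NP0618, with "precise" read here as precise excision of an insertion. Whether KG04636 and KG06436 are the same insertion is not settled, and the third chromosomes of the 2 genotypes are not given in the sources used here. Each genotype had 3 Affymetrix arrays, numbered 1 to 3 in the sample titles and labelled as biological replicates. Whole 1st instar larvae, 200 to an array, were raised at 25 °C and collected about 48 after egg laying, a time the labels give with no unit.

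UDP-glycosyltransferases sit in the membrane of the endoplasmic reticulum and join a sugar from a UDP-sugar donor to small fat-soluble molecules. In insects the donor is mainly UDP-glucose, and the product is more soluble in water and easier to excrete. The substrates include plant toxins, insecticides, hormones, pigments and odorants, and the enzymes are found in fat body, midgut, Malpighian tubules and sense organs. The family has grown by tandem duplication, so that many members lie side by side on the chromosome.

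The arrays give an RMA value on the log2 scale for each probe set, and array medians lay between 5.29 and 5.37. The number of arrays limits the precision, and a level of 1 probe set cannot be set against that of another. Kdm4A had 3.44, 3.41 and 3.29 in mutant arrays 1, 2 and 3, against 5.18, 5.26 and 5.46 in control arrays 1, 2 and 3, so the arrays matched their labels, though whether its probe set lies in the deleted part is not known. As a sign of RNA quality, the 3′ to 5′ gap of the actin controls was 2.39 and 2.34 in mutant and control arrays numbered 1 and lay between 1.53 and 1.84 in the other 4 arrays. Markers of larval tissues differed in how far they were read. Of the fat body markers, the fatty acid synthase gene FASN1 averaged 13.70 in the mutant and 13.68 in the control. The storage protein gene Lsp2 lay between 4.89 and 5.28 on the 6 arrays. Fbp1, at 3.97 in the mutant and 3.91 in the control, and Fbp2, at 3.89 in the mutant and 3.93 in the control, lay close to the arrays' lower quartiles of 3.69 to 3.79, and 3 of the 9 listed fat body genes were not measured. The neuronal gene elav averaged 9.10 in the mutant and 8.90 in the control.

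In the comparison of mutant with control larvae, 1 of 35 Ugt genes passed limma at an adjusted p under 0.05, against 0.159% of all genes. This gene, Ugt35B1, was 4.62-fold lower in the mutant, where 0.0918% of all genes were called lower and 0.0668% higher. The other 34 genes did not pass. Before adjustment 6 of 35 members had a p under 0.05, beside 5.27% of all genes, and 2 of 35, Ugt35B1 and Ugt35E2, differed at least 2-fold, beside 1.34%. The log2 differences of the 34 genes that did not pass lay between -1.09 for Ugt35E2 and 0.76 for Ugt37A2. Over the family 18 differences were positive and 17 negative, with a median of 0.00, and over all genes 48.2% were positive, with a median of -0.01. Of the 34 genes, 30 had a 95% interval that lay within 1 log2 unit of 0, and 16 had one within 0.5. The wider intervals were those of Ugt35E2, Ugt50B3, Ugt37A2 and Ugt37C1. Groups did not overlap in 7 of 35 members, against 10.3% of all genes. Of these 4 were lower in the mutant, beside 6.23% of all genes, and 3 were higher, beside 4.11%. All 3 same-numbered pairs of arrays differed in 1 direction in 17 members, 7 higher and 10 lower in the mutant, which is 48.6% of the family beside 33.7% of all genes.

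**Figure D1:**
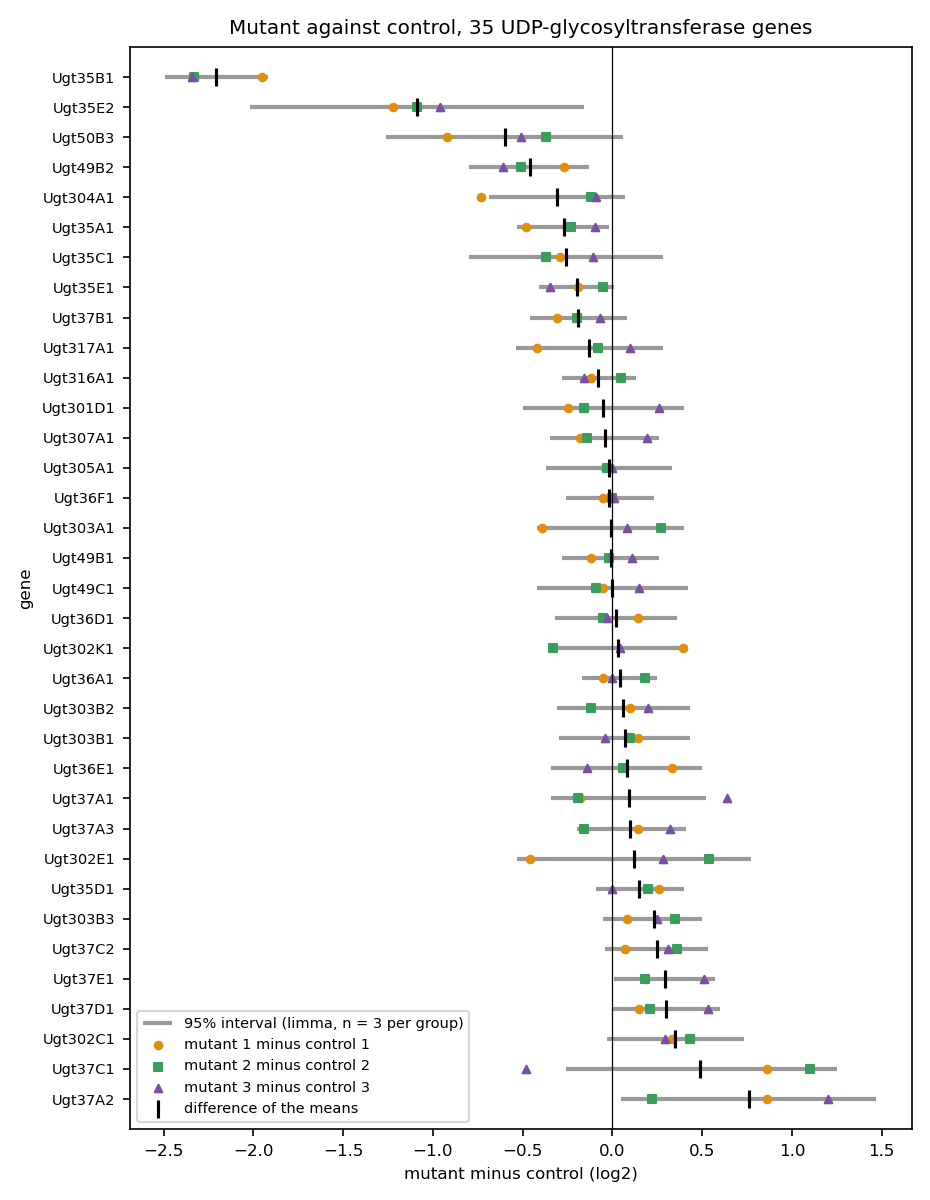
Mutant minus control differences (log2) of all 35 Ugt genes, with the difference of the means, its 95% interval from limma (n = 3 per group) and the difference within each same-numbered pair of arrays. Ugt35B1 lies at -2.21 with an interval from -2.49 to -1.92, and the pairs of Ugt37C1 fall on both sides of 0.

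Ugt35B1, known for preferential expression in the adult antennae, had 3.87, 3.85 and 3.69 in mutant arrays 1, 2 and 3, against 5.82, 6.18 and 6.04 in control arrays 1, 2 and 3. The groups lay far apart, with a gap wider than the spread within either. The mean was 3.81 ± 0.10 in the mutant and 6.01 ± 0.18 in the control (SD, n = 3 each). The difference of -2.21 on the log2 scale had an SE of 0.12 (limma adjusted p = 0.00174). The mutant values lay close to the arrays' lower quartiles. With no test against background for such dim values, 4.62-fold may be too small. Between arrays numbered 3 and 1 the gene differed by 0.02 (SE 0.14). In the fit of the 4 arrays numbered 2 and 3 the difference was -2.34 and the adjusted p 0.0551, the highest over 17 alternatives whose lowest was 0.000341. That fit called 0% of all genes. In bulk larvae, fewer cells of a type and less RNA per cell cannot be told apart. Ugt35B1 lies on 3R, and the third chromosomes of the genotypes are not given, so a difference between them cannot be told apart from the mutation either.

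Of the 6 olfactory genes in the marker list 5 were measured. By limma 0 of 5 passed between genotypes, beside 0.159% of all genes, and 0 of 5 had an unadjusted p under 0.05, beside 5.27%. Their mean lay between 5.23 and 5.48 in the mutant arrays and between 5.28 and 5.46 in the control arrays. Orco, the odorant co-receptor gene, averaged 4.60 ± 0.14 in the mutant and 4.69 ± 0.11 in the control (SD, n = 3 each). No marker reads 0 on an RMA scale, and the odorant-binding protein gene lush, at 3.18 in the mutant and 3.11 in the control, was below the lower quartiles of the arrays. Obp83b, at 3.97 in the mutant and 3.98 in the control, lay close to them, while Obp28a averaged 10.22 in the mutant and 10.21 in the control. Counts over 5 genes, some of them dim, cannot show whether olfactory tissue differed.

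Ugt35E2 adjoins Ugt35B1 in the annotation and had the next lowest difference. Its values were 6.87, 7.62 and 8.18 in mutant arrays 1, 2 and 3, against 8.09, 8.71 and 9.14 in control arrays 1, 2 and 3. The groups overlapped, because mutant array 3 was above control array 1, while every mutant array was below the control array of its own number. The differences within pairs 1, 2 and 3 were -1.22, -1.09 and -0.96. Without the pairing the difference of -1.09 had an SE of 0.39 (limma adjusted p = 0.821). With the replicate number as a block the SE was 0.09 and the adjusted p 0.0154, and Ugt35E2 then fell 2.13-fold in the mutant. With this block 2 of 35 members passed, both lower in the mutant, against 0.818% of all genes, 0.526% lower and 0.292% higher. At an unadjusted p under 0.05 the block gave 11 of 35 members, beside 11.2% of all genes. The block takes same-numbered arrays as pairs, whose deviations over all genes correlated at 0.684, 0.151 and 0.756 for numbers 1, 2 and 3. The titles do not state such pairs, which were taken from these same values. Under the block Ugt35E2 also passed without pair 1 and without pair 2, but not without pair 3, and over all 18 alternatives its adjusted p ranged from 0.0154 to 1.

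The remaining 4 genes of the Ugt35 group gave smaller differences. Ugt35A1 had 9.57, 9.83 and 9.85 in mutant arrays 1, 2 and 3, against 10.05, 10.06 and 9.96 in control arrays 1, 2 and 3. These groups did not overlap, yet the difference of -0.27 (SE 0.11) did not pass (limma adjusted p = 0.894). Ugt35C1, whose product contributes to nicotine resistance and which is also known as Ugt86Dd, had 7.62, 8.01 and 8.35 in mutant arrays 1, 2 and 3, against 7.91, 8.38 and 8.46 in control arrays 1, 2 and 3. The groups overlapped, with each mutant array below the control array of its own number. The gene averaged 7.99 ± 0.36 in the mutant and 8.25 ± 0.29 in the control (SD, n = 3 each). Its difference of -0.26 (SE 0.22) passed neither with nor without the block. Ugt35E1 differed by -0.20 (SE 0.09) with groups that did not overlap, and Ugt35D1, which lies apart from the others on 3R, differed by 0.15 (SE 0.10).

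**Figure D2:**
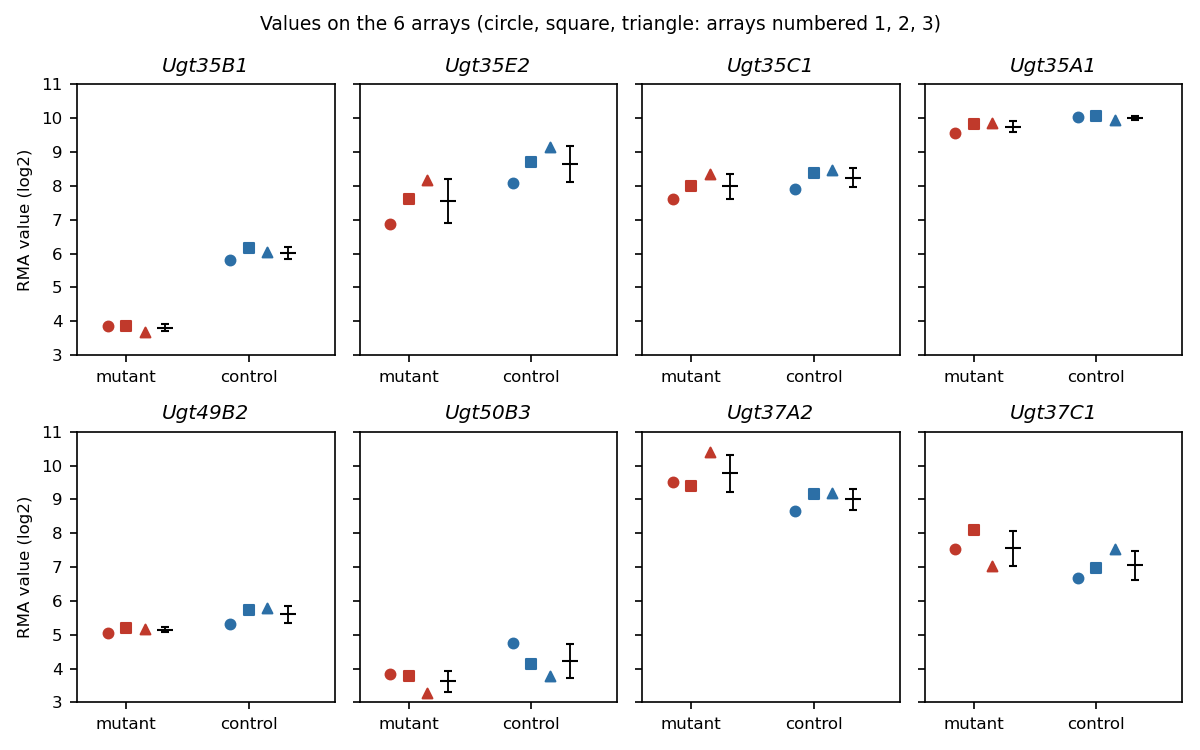
RMA values (log2) of 8 Ugt genes on the 3 mutant and 3 control arrays, with circles, squares and triangles for arrays numbered 1, 2 and 3 and bars for the mean ± SD of each genotype. Ugt35B1 separates the genotypes with no overlap, and Ugt35E2 shows the same order of array numbers in both genotypes at levels 1.09 apart on average.

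By chromosome arm, 17 members lie on 3R, 11 on 2L, 5 on 2R and 2 on 3L, and 0 on X or 4. Allowing up to 2 other protein-coding genes between neighbours, 23 members form 6 runs and 12 stand alone. The longest run, on 3R, holds 10 members from Ugt35C1 to Ugt303A1. Within it 7 differences were negative and 3 positive, with a median of -0.23, beside 51.8% negative and a median of -0.01 over all genes. Ugt35E2 and Ugt35B1 are the sixth and the seventh gene of the run. On the side of Ugt35E2 the next member, Ugt35E1, differed by -0.20, and beyond it Ugt302C1 differed by 0.35 (SE 0.16). On the side of Ugt35B1 the next members, Ugt35A1 and Ugt304A1, differed by -0.27 and -0.31 (SE 0.11 and 0.16), and Ugt303A1 at the end of the run differed by -0.01 (SE 0.17). Of the other protein-coding genes inside the run, mAcon2 differed by 0.04 (SE 0.10) and CG4757 by 0.07 (SE 0.10). Just outside it, SdhCL differed by -0.06 (SE 0.10) and CG18577 by 0.00 (SE 0.19). Neither these 4 genes nor the 8 run members other than Ugt35B1 and Ugt35E2 passed between genotypes with or without the block.

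**Figure D3:**
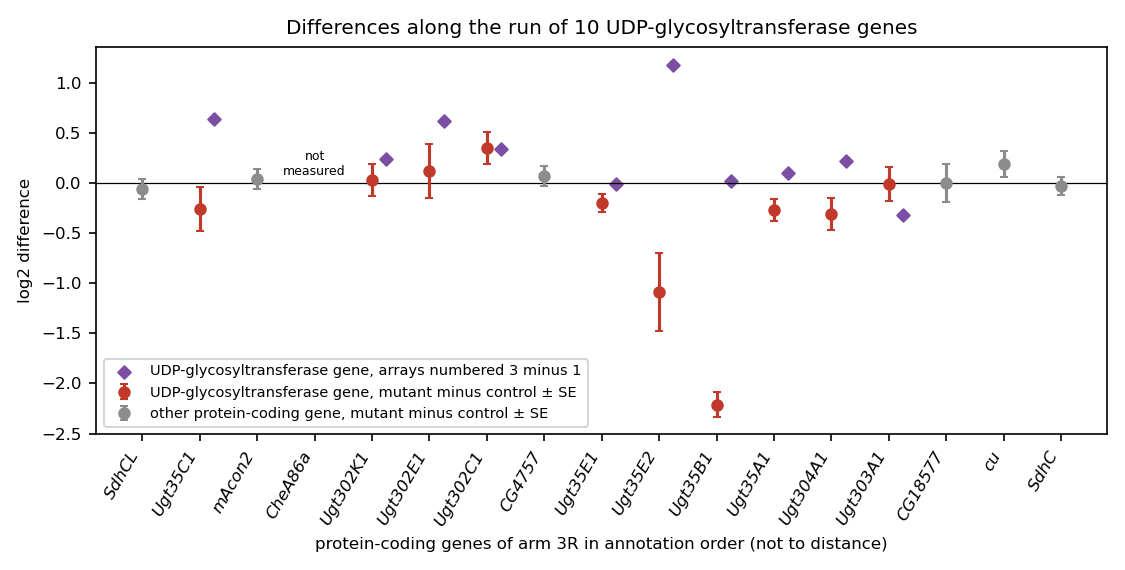
Log2 differences of the 10 Ugt genes of the longest run and of the measured protein-coding genes around them, in annotation order along 3R. Mutant minus control is drawn with its SE and reaches -1.09 at Ugt35E2 and -2.21 at Ugt35B1, while arrays numbered 3 minus 1 (diamonds) peak at Ugt35E2 with 1.18.

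Among the shorter runs, the 3 genes from Ugt37C2 to Ugt37D1 on 2L had like differences. Ugt37C2, Ugt37E1 and Ugt37D1 differed by 0.25, 0.29 and 0.30 (SE 0.12, 0.12 and 0.13), each higher in the mutant in 3 of 3 pairs. Ugt37E1 had 5.16, 5.18 and 5.52 in mutant arrays 1, 2 and 3, against 4.98, 5.01 and 5.01 in control arrays 1, 2 and 3. Ugt37D1 had 10.44, 10.57 and 10.87 in mutant arrays 1, 2 and 3, against 10.28, 10.35 and 10.34 in control arrays 1, 2 and 3. In both genes the groups did not overlap, and mutant array 3 was the highest. Neither passed, with limma adjusted p values of 0.914 for Ugt37E1 and 0.941 for Ugt37D1 and of 0.386 and 0.382 with the block. The 3 genes from Ugt36F1 to Ugt36E1 on 2L lay between -0.02 and 0.08, the highest being Ugt36E1, a gene of olfactory sensory neurons (SE 0.17). The pair Ugt49B1 and Ugt49C1 on 2R lay at -0.01 and 0.00, and the 3 genes from Ugt303B3 to Ugt303B2 on 3R between 0.06 and 0.23.

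The largest positive difference was that of Ugt37A2 on 3R. It had 9.52, 9.39 and 10.40 in mutant arrays 1, 2 and 3, against 8.65, 9.17 and 9.20 in control arrays 1, 2 and 3. The groups did not overlap, but mutant array 3 stood well above the other mutant arrays. The difference was 0.76 (SE 0.29), with a limma adjusted p of 0.894 and of 0.216 with the block. Within pairs 1, 2 and 3 it was 0.86, 0.22 and 1.20. With the block and without pair 2, the smallest of these, it was 1.03 with a limma adjusted p of 0.041. This was the only call over 18 alternatives, whose differences ranged from 0.44 to 1.03. The neighbour of Ugt37A2, Ugt37A3, differed by 0.10 (SE 0.13). Over the 8 genes of the Ugt37 group 7 differences were positive, with a median of 0.27, beside 48.2% positive over all genes. By limma 0 of 8 passed, beside 0.159% of all genes, and 2 of 8 had an unadjusted p under 0.05, beside 5.27%.

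Ugt37C1 on 2R varied between pairs. It had 7.54, 8.09 and 7.04 in mutant arrays 1, 2 and 3, against 6.68, 6.98 and 7.52 in control arrays 1, 2 and 3. The groups overlapped, and the differences within pairs 1, 2 and 3 were 0.86, 1.10 and -0.48. The mean difference of 0.49 had an SE of 0.31 with and without the block and a 95% interval from -0.26 to 1.25.

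Outside the runs, Ugt50B3 and Ugt49B2 had the lowest differences after Ugt35E2. Ugt50B3, the member of a group that is conserved across insects, had 3.85, 3.77 and 3.28 in mutant arrays 1, 2 and 3, against 4.77, 4.13 and 3.78 in control arrays 1, 2 and 3. These values lay near the low end of the arrays, and the groups overlapped narrowly. The difference was -0.60 (SE 0.28, limma adjusted p = 0.977). Ugt49B2 had 5.05, 5.21 and 5.18 in mutant arrays 1, 2 and 3, against 5.33, 5.72 and 5.79 in control arrays 1, 2 and 3. Every mutant value was below every control value, and the difference of -0.46 (SE 0.14) did not pass (limma adjusted p = 0.662). Ugt36A1, also called Dot and known from pericardial cells and the lymph gland, differed by 0.04 (SE 0.09). The remaining lone members, Ugt37B1, Ugt317A1, Ugt316A1, Ugt301D1, Ugt307A1, Ugt305A1 and Ugt37A1, had differences from -0.19 to 0.09.

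Ugt49B1 had 10.26, 10.53 and 10.55 in mutant arrays 1, 2 and 3, against 10.38, 10.55 and 10.44 in control arrays 1, 2 and 3. The genotypes overlapped throughout, and the difference of -0.01 had a 95% interval from -0.28 to 0.26. Ugt35D1 had 4.42, 4.25 and 4.13 in mutant arrays 1, 2 and 3, against 4.16, 4.05 and 4.12 in control arrays 1, 2 and 3. Ugt307A1 had 4.03, 4.28 and 4.24 in mutant arrays 1, 2 and 3, against 4.21, 4.42 and 4.05 in control arrays 1, 2 and 3. Both genes had overlapping groups, with differences of 0.15 and -0.04.

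Over all genes, deviations from the group mean correlated between the genotypes at 0.684 for arrays numbered 1 and 0.756 for arrays numbered 3. For arrays numbered 2 the value was only 0.151. The family was therefore also compared between array numbers, with genotype in the fit. Of 35 members 3 passed between arrays numbered 3 and 1, against 8.25% of all genes: Ugt35E2 and Ugt35C1 were higher and Ugt50B3 was lower in arrays numbered 3, where 4.91% of all genes were called higher and 3.35% lower. Ugt35E2 was 2.27-fold higher (log2 difference 1.18, SE 0.11, limma adjusted p = 0.0155). Ugt35C1 differed by 0.64 (SE 0.11, adjusted p = 0.0366) and Ugt50B3 by -0.78 (SE 0.15, adjusted p = 0.0448). At an unadjusted p under 0.05 there were 12 of 35 members, beside 26.4% of all genes. Positive differences were found for 27 members, with a family median of 0.17, and for 55.2% of all genes, with a median of 0.03. With quantile normalization the family median was 0.12 and that of all genes 0.03, and Ugt50B3 did not pass (adjusted p = 0.0651, over a range of 0.0212 to 0.248 in 12 alternatives). These calls rested on few arrays, and leaving out an array numbered 3 or 1 left only 1 of that number. Calls were lost in such fits, most of which also called far fewer of all genes. With 1 array left out, the differences lay between 1.08 and 1.28 for Ugt35E2 and between 0.53 and 0.75 for Ugt35C1. For Ugt50B3 they lay between -1.02 and -0.54.

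Between arrays numbered 2 and 1, limma called 0 of 35 members and 0% of all genes, with 6 members and 11.6% of all genes at an unadjusted p under 0.05. Between arrays numbered 3 and 2 it called 0 of 35 members and 0.492% of all genes, with 6 members and 16.8% of all genes at an unadjusted p under 0.05. By limma's F test over the 3 numbers, 1 of 35 members, Ugt35E2, passed (adjusted p = 0.0383), against 1.59% of all genes.

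Within each genotype alone, the difference between arrays 3 and 1 was 1.31 in the mutant and 1.05 in the control for Ugt35E2. It was 0.73 in the mutant and 0.55 in the control for Ugt35C1, and -0.57 in the mutant and -0.98 in the control for Ugt50B3. Ugt37C1 ran opposite ways, with -0.50 in the mutant and 0.84 in the control. Of 35 members 26 had the same sign in both genotypes, which is 74.3% beside 70.7% of all genes. Across the 35 genes, which share the same 4 arrays, Pearson's r of the differences was 0.497, and it was 0.776 across all 11983 genes.

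**Figure D4:**
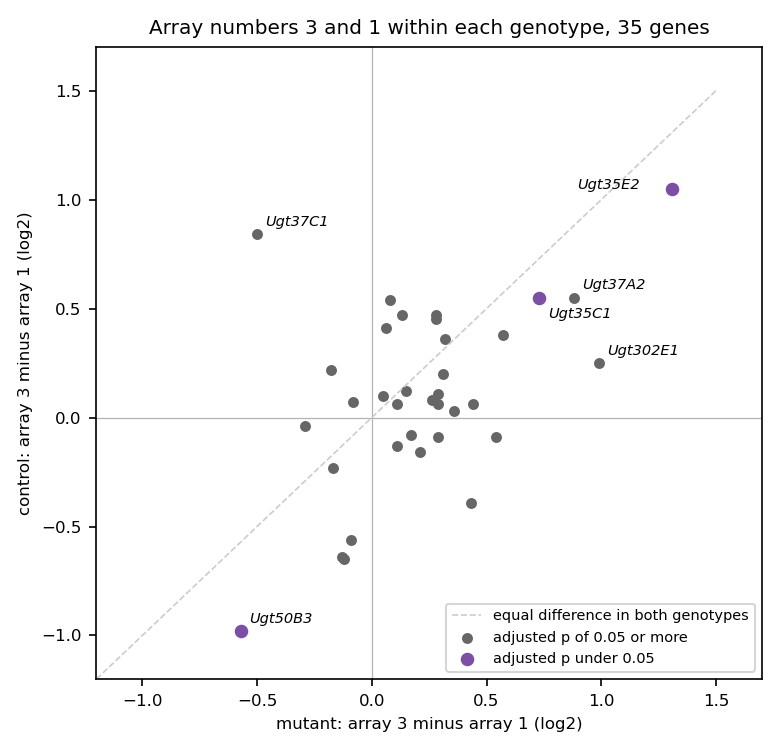
Difference between arrays numbered 3 and 1 (log2) within the mutant (horizontal) and within the control (vertical) for 35 Ugt genes, with members called at a limma adjusted p under 0.05 drawn larger. Ugt35E2 lies at 1.31 and 1.05, Ugt50B3 at -0.57 and -0.98, and Ugt37C1 at -0.50 and 0.84.

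Some markers of tissues passed between the array numbers as well, where 4.91% of all genes were called higher and 3.35% lower, with 26.4% at an unadjusted p under 0.05. Cuticle and epidermis markers, 6 of 10 measured, had a mean of 5.65 to 5.86 in arrays numbered 3 and of 7.12 to 7.23 in arrays numbered 1, with 3 called lower. The mean of the neuron and glia markers, 4 of 5 measured, was 8.13 to 8.22 in arrays numbered 3 and 7.26 to 7.68 in arrays numbered 1, with 2 called higher. Fat body markers, 6 of 9 measured, had a mean of 8.12 to 8.25 in arrays numbered 3 and of 8.06 to 8.10 in arrays numbered 1, and 0 passed limma, with 2 at an unadjusted p under 0.05. For midgut markers, 5 of 8 measured, it was 12.49 to 12.64 in arrays numbered 3 and 12.56 to 12.92 in arrays numbered 1, with 0 passing limma and 0 at an unadjusted p under 0.05. Of 4 measured Malpighian tubule markers out of 6, the potassium channel gene Irk3 passed, with a difference of 0.53 (SE 0.11, limma adjusted p = 0.0491). The zinc transporter gene ZnT35C of the same list differed by -0.79 (SE 0.20) and did not pass (limma adjusted p = 0.0777). At an unadjusted p under 0.05 there were 2 of 4, 1 in each direction, and the list mean was 7.14 to 7.29 in arrays numbered 3 and 7.18 to 7.25 in arrays numbered 1. Of 5 measured olfactory markers, Obp28a, an odorant-binding protein gene, passed with 0.88 (SE 0.16, limma adjusted p = 0.0378). The other 4 did not pass, with -0.41 for Obp83b, -0.04 for lush, 0.03 for Orco and 0.13 for a10, so the list median was 0.03. The list mean, 5.46 to 5.48 in arrays numbered 3 and 5.28 to 5.42 in arrays numbered 1, takes its difference mainly from Obp28a. The part of tissue makeup and of RNA quality in the differences between array numbers was not tested.

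Between genotypes, Cpr67Fa2 alone passed among the 30 marker genes measured, beside 0.159% of all genes. It was 13.7-fold higher in the mutant (log2 difference 3.78, SE 0.35, limma adjusted p = 0.0214). Of the 6 cuticle and epidermis markers 3 were higher and 3 lower in the mutant. Their mean, which Cpr67Fa2 raised in the mutant, was 5.86 to 7.23 in the mutant and 5.65 to 7.12 in the control. The median of their differences was -0.15, and the lowest was -1.26 (SE 1.06) for Cpr65Eb. For neuron and glia markers the mean was 7.65 to 8.22 in the mutant and 7.26 to 8.13 in the control. Malpighian tubule markers had a mean of 7.25 to 7.51 in the mutant and of 7.14 to 7.19 in the control. Of these, the chloride channel gene SecCl differed by -0.40 (SE 0.09) and ZnT35C by 0.80 (SE 0.33), and neither passed (limma adjusted p = 0.414 and 0.923). Fat body markers had a mean of 8.06 to 8.25 in the mutant and of 8.10 to 8.19 in the control, and midgut markers one of 12.56 to 12.73 in the mutant and of 12.49 to 12.92 in the control. Of 5 midgut markers 4 were lower in the mutant, beside 51.8% of all genes, with a median difference of -0.21. The other, Mal-A1, was higher by 0.33 (SE 0.36). The part of tissue makeup in the Ugt differences was not tested.

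Other genes of the pathway were read from 4 lists, of which 42 of 46 genes were measured. Between genotypes and without the block 0 of 42 passed limma, beside 0.159% of all genes, and 3 had an unadjusted p under 0.05, beside 5.27%. With the block 2 of 42 passed, beside 0.818% of all genes, UGP higher and St4 lower in the mutant. UGP encodes the enzyme that makes UDP-glucose, the sugar donor of these enzymes. It had 4.57, 5.17 and 4.82 in mutant arrays 1, 2 and 3, against 3.72, 3.91 and 3.89 in control arrays 1, 2 and 3. The groups did not overlap, and the difference was 1.01 (SE 0.16), with a limma adjusted p of 0.112 and of 0.0293 with the block, over a range of 0.0293 to 0.499 in 17 alternatives, of which 4 gave a call. Its 1 probe set was dim, with control values close to the lower quartiles of the arrays. Ugalt, a UDP-galactose transporter gene, had 8.80, 8.90 and 8.73 in mutant arrays 1, 2 and 3, against 9.22, 9.34 and 9.12 in control arrays 1, 2 and 3. These groups did not overlap either, and the difference of -0.41 (SE 0.10) did not pass (limma adjusted p = 0.408, and 0.112 with the block).

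Among the sulfotransferases, which conjugate sulfate in place of a sugar, St4 passed between array numbers and, with the block, between genotypes. St4 had 7.01, 7.17 and 5.84 in mutant arrays 1, 2 and 3, against 7.90, 7.96 and 6.56 in control arrays 1, 2 and 3. The groups overlapped, and each mutant array was below the control array of its number, with a difference of -0.80 (SE 0.49, limma adjusted p = 0.998). With the block the SE was 0.08 and the adjusted p 0.0275, and over 18 alternatives it ranged from 0.0275 to 1. Between arrays numbered 3 and 1, St4 differed by -1.25 (SE 0.10, limma adjusted p = 0.0147) and St1 by -1.60 (SE 0.20, adjusted p = 0.0213), where 3.35% of all genes were called lower. St2 differed by -0.46 (SE 0.12) and St3 by -0.06 (SE 0.11), and neither passed. All 4 sulfotransferase differences were thus negative, that of St3 within its SE, where 55.2% of all genes had a positive one.

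The list of ABC family genes includes efflux transporters that carry conjugates and drugs out of cells, though not every gene on it need do so. Of 16 measured genes 14 were higher in arrays numbered 3 than in arrays numbered 1, with a median difference of 0.19. Over all genes 55.2% were higher, with a median of 0.03. Of the 16, 3 passed, all higher, where 8.25% of all genes were called and 4.91% called higher. Mdr65 rose by 1.01 (SE 0.17), Mdr50 by 0.77 (SE 0.13) and Mrp5 by 0.57 (SE 0.10), with limma adjusted p values of 0.0348, 0.0338 and 0.0364. Between genotypes 0 of 16 passed, with 1 at an unadjusted p under 0.05, CG10505, which differed by 0.40 (SE 0.11). None of the 8 regulators of the response to foreign compounds and juvenile hormone passed either comparison. Between genotypes 0 of the 8 had an unadjusted p under 0.05, and their differences lay between -0.18, for the nuclear receptor gene Hr96, and 0.05. Between arrays numbered 3 and 1 there were 2 of 8, beside 26.4% of all genes, tgo with 0.41 (SE 0.11) and Met with 0.29 (SE 0.10). Of the 42 pathway genes 5 passed between arrays numbered 3 and 1, beside 8.25% of all genes. Fewer passed without mutant replicate 3, control replicate 1 or control replicate 3, where far fewer of all genes were called as well. With 1 array left out, St4 differed by -1.32 to -1.19 and St1 by -1.95 to -1.25. Mdr65 differed by 0.73 to 1.28, Mdr50 by 0.67 to 0.88 and Mrp5 by 0.52 to 0.62.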

How the data were processed

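RNA of 3 mutant and 3 control samples was labelled with biotin for Affymetrix arrays, per the labels' protocols. The authors deposited log2 values for probe sets. RMA made them, per the submitters' processing notes, version not given in the sources used here. The log2 scale was read from the range of the values, and RMA removes a shift common to most genes. Of 18952 probe sets, 183 controls were left out, and 13647 named 1 gene in the probe table. The probe set with the highest mean per gene gave 11983 genes. The RefSeq table of Release 6 gave names, arms and order only.

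Genotypes were compared with limma 3.58.1 (R 4.3.3, statmod 1.5.0), two-sided, with p-values adjusted by Benjamini-Hochberg over every gene and called under 0.05. Array numbers were compared with genotype in the fit. The fits were also run on simulated data. For the genotype fits, same-numbered arrays were simulated with a shared effect, so the simulation does not test the pairing of the real arrays. Over all genes, deviations from the group mean correlated at 0.684, 0.151 and 0.756 between same-numbered arrays, so the titles' numbers were taken to pair them, though mutant array 2 correlated more with control array 1, at 0.354, than with control array 2, and for the Ugt genes alone the same-numbered values were 0.49, -0.0789 and 0.397. The titles name no shared batch, so the block rests on a pairing read from the same values that it was then used to test. No arrays were identical. Alternatives changed the normalization, filter, probe sets, prior, weights, block and arrays. The members, lists and tests were chosen with earlier results of these data known. Values on all arrays are given for called members, those at least 2-fold different and those whose probe sets had the highest or lowest means (a rule for naming, not a ranking of genes), and for others chosen after their values were seen. From other lists, called genes and those with the smallest p were named. Plots were drawn with matplotlib 3.10.9.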

Additional observations from a re-analysis of the deposited data

How the results depend on the processing

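The count of Ugt genes called between genotypes, 1, became 0 among the upper 60% of genes, which leaves 24 members and not Ugt35B1, beside 0.153% of those genes. It was also 0 without both arrays numbered 1, a fit in which 0 of all 11983 genes passed. With the replicate block the count was 2, beside 0.818% of all genes. Under the block it was 2 without pair 1, 3 without pair 2 and 1 without pair 3, beside 0.743%, 0.918% and 0.192% of all genes. Leaving out 1 array gave 1 in each case, beside 0.0417% to 0.15% of all genes. The family median of 0.00 became -0.04 with array weights and -0.03 with the block and without pair 3, and it ranged from -0.06 to 0.07 with 1 array left out. Between arrays numbered 3 and 1 the count of 3 was 4 without mutant replicate 2 or without control replicate 2, beside 10.5% of all genes. It fell where 1 array numbered 3 or 1 was left out. The pathway lists were followed through the alternatives by a choice made after seeing the data. Their count of 0 between genotypes became 2 with the replicate block and 1 with array weights, beside 0.818% and 0.684% of all genes. Under the block it was 1 without pair 1 and 1 without pair 2, beside 0.743% and 0.918%. Between arrays numbered 3 and 1 the count of 5 fell without mutant replicate 3, control replicate 1 or control replicate 3. Of 619 values of single Ugt genes between genotypes, 1 lost and 4 gained a call, and 0 calls reversed. Of 444 between array numbers, 10 lost and 3 gained one, and 0 calls reversed. Differences of genes not called did change sign. Over the alternatives Ugt302E1 ranged from -0.09 to 0.41 between genotypes, and Ugt37C1 from -0.56 to 0.90 between arrays numbered 3 and 1. With no pair left out, the block added the call of Ugt35E2 between genotypes and changed no other call of a Ugt gene. Apart from the smaller sets of genes or arrays, the cause was not tested. Dim probe sets, such as those of Ugt35B1 in the mutant and Ugt50B3, limit the folds.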
